A study of Rattus norvegicus with 6 samples.

Results

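The genes described here are 10 genes of Toll-like receptor and NF-kappaB signalling, measured on Affymetrix rat arrays in ovary RNA of lean and overfed rats. They are the receptors Tlr2 and Tlr4, the adaptor Myd88, the ubiquitin ligase Birc3, the NF-kappaB subunit genes Nfkb1, Nfkb2 and Relb, and the inhibitors Nfkbia, Tnfaip3 and Socs3. They were taken by name, and every probe set that the platform annotation assigns to only 1 of them was used. Each gene had 1 such probe set, so 10 of 31042 tested probe sets, or 10 of 14217 genes, are described. Female rats had been fed liquid diet by total enteral nutrition for 28 days, 155 kcal in the lean and 220 kcal in the overfed group per unit of metabolic body weight. All were mated with lean males, and ovaries were frozen at 4.5 days post coitum. Each array held 1 pool of RNA, with 3 lean and 3 overfed pools. The labels give neither the strain or age of the rats nor the number of animals in a pool, so p-values measure only the spread between pools.

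Toll-like receptors bind microbial products and some products of damaged tissue, and most of them signal through the adaptor Myd88 to kinases that activate the IkappaB kinase complex. That complex marks IkappaB proteins, such as the product of Nfkbia, for destruction and so lets NF-kappaB dimers enter the nucleus. In the non-canonical branch the precursor p100, encoded by Nfkb2, is processed and pairs with the Relb protein, a step that Birc3 restrains. NF-kappaB induces several of its own regulators, among them Nfkbia, Tnfaip3, Birc3, Nfkb2 and Relb, so the RNA of these genes is often read as a trace of the pathway's activity. In the ovary the pathway is known from resident macrophages, from follicle cells and from the inflammatory reaction that accompanies ovulation.

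The promoters of several of these genes carry matches to the sequence that NF-kappaB binds, which are shown here as a description. The rule that chose the genes did not use the matches, but several of the genes are NF-kappaB targets, as said above. The shares over all promoters are therefore given as background and are not a test. RefSeq promoters of build GRCr8 were at hand for 8 of the 10 genes, Tlr2, Tlr4, Myd88, Nfkb1, Nfkb2, Nfkbia, Tnfaip3 and Socs3. In the 250 bases before the transcription start, searched on both strands, the 10-base kappaB consensus was found in 5 of these 8 promoters, against 3.52% of 27457 rat promoters, and Tlr4, Myd88 and Nfkb1 had none. The 9-base core GGANTTTCC, which overlaps the consensus where both match, was found in 3 of the 8, against 1.06% of all promoters. The cytokine-response palindrome TTCNNNGAA was found in 1 of the 8, Myd88, against 7.52% of all. A match is a description of the letters, and binding was not measured. The windows of 100 bases below hold the matches in capitals, in the direction of transcription.

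Tnfaip3: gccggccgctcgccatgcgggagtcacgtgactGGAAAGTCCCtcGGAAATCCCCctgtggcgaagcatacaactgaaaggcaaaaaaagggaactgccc
Nfkbia: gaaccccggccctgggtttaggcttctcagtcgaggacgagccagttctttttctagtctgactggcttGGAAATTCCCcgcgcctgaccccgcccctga
Nfkb2: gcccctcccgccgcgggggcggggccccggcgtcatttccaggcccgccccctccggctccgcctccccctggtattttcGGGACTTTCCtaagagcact
Tlr2: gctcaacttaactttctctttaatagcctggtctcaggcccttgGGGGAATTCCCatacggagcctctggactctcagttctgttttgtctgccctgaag
Socs3: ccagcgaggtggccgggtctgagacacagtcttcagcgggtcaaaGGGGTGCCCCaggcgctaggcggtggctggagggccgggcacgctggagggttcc

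These windows lie in GRCr8 at chr1:15543980-15544079 on the minus strand for Tnfaip3, chr6:78597073-78597172 on the minus strand for Nfkbia, and chr1:255108274-255108373 on the plus strand for Nfkb2. Those of Tlr2 and Socs3 lie at chr2:171504708-171504807 and chr10:103694875-103694974, both on the minus strand. The first 3 windows end at the base before the transcription start, where the Nfkb2 match begins 20 bases, the Nfkbia match 31 bases and the Tnfaip3 matches 67 and 55 bases before the start. The Tlr2 match is a pair of overlapping sites that begin 206 and 205 bases before the start, and the Socs3 match begins 161 bases before it. Outside the windows printed, Tnfaip3 has a further match 170 bases and Nfkbia a further core match 180 bases before the start.

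The deposited values are logarithms, read here as log2, and are given as distances from the median of the 6 pools, probe set by probe set. A value of 0.10 therefore says that a pool lay above that gene's median, whereas the level of the gene is not known and levels of different genes cannot be set against each other. For the same reason the ovarian origin of the RNA could not be checked by the level of its markers. Over all probe sets the pool medians lay between -0.0094 and 0.0099. Lean pool 3 stood apart in 18 hybridization controls, with a mean of 0.51 against -0.24 to 0.044 in the other pools. Overfed pool 1 had the widest spread over probe sets, with an SD of 0.29 against 0.14 to 0.24 in the others.

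Overfed and lean ovaries were compared to ask whether genes of this pathway differ with the mother's overfeeding, in a study whose title names ovarian inflammation. None of the 10 genes passed the test. The differences, overfed minus lean, ran from -0.29 for Nfkb2 to 0.14 for Tlr2 and Socs3, and the limma adjusted p-values from 0.78 to 0.994. All 3 subunit genes had lower means in the overfed pools, as did Birc3, Nfkbia and Tlr4, while Socs3 and Tlr2 had higher means and Myd88 and Tnfaip3 lay within 0.012 of no difference.

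In counts, 0 of the 10 passed an adjusted p of 0.05 in limma, as did 0 of all 31042 probe sets, or 0%. At an unadjusted p under 0.05 there were again 0 of 10, against 6.67% of all probe sets. The groups did not overlap in 2 of the 10, Nfkb2 and Socs3, against 12.7% of all probe sets. The mean was lower in the overfed pools in 6 of the 10, against 45.4% of all. The median difference over the 10 was -0.073, against 0.015 over all probe sets. Without lean pool 1 that median was -0.013, without lean pool 3 it was -0.046, and leaving out overfed pool 3 gave -0.11. With fewer pools, groups separate more easily. The groups did not overlap in 5 genes without lean pool 2 and in 4 when overfed pool 1 or overfed pool 2 was left out. The share over all probe sets in these runs is not given, and 12.7% is for all 6 pools, so these counts have no background to be read against.

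The precision was sufficient to bound most of the differences in the deposited values. Signal over background is unknown, so the same bounds need not hold for the RNA itself. A 1.5-fold difference is 0.585 on the log2 scale, and for 9 of the 10 genes the 95% interval of the limma fit lay inside 1.5-fold in both directions, as it did for 84.5% of all probe sets. The exception was Nfkb2, whose interval reached from -0.60 to 0.027. These intervals are for single genes and are not adjusted for the number of genes. They hold for log2 values, and if the deposited values are natural logarithms, the folds printed are too small and the same bounds stand for larger folds.

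**Figure D1:**
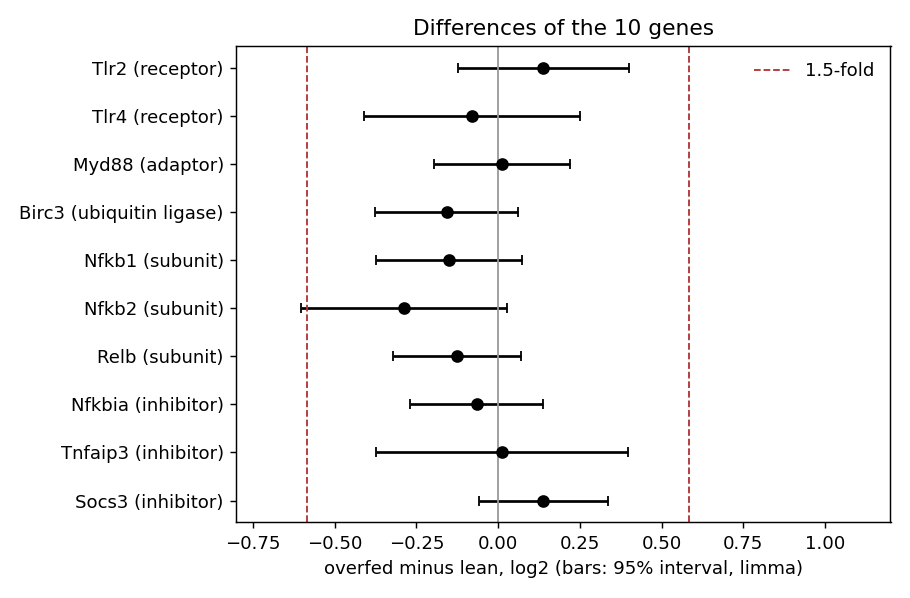
Overfed minus lean difference of each of the 10 genes on the log2 scale (x axis), with its 95% interval from limma over 3 lean and 3 overfed pools. Every interval includes 0, and only that of Nfkb2, from -0.60 to 0.027, crosses a dashed line at a 1.5-fold difference (0.585).

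The receptors differed in the direction of their means, and neither difference passed the test. Tlr2 (probe set 1392280_at), the receptor for bacterial lipoproteins, was at -0.11, 0.070 and -0.27 in lean pools 1 to 3, and overfed pools 1 to 3 held 0.11, 0.069 and -0.069. Lean pool 2 lay as high as overfed pool 2, so that the groups overlapped, and lean pool 3 was the lowest of all. The difference was 0.14 (SE 0.11, 95% interval -0.12 to 0.40, n = 3 pools a group), with a limma adjusted p of 0.868. Leaving out lean pool 3 gave 0.055, leaving out lean pool 2 gave 0.22, and with both lean pool 3 and overfed pool 1 left out it was 0.018.

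Tlr4 (probe set 1387982_at), the receptor for lipopolysaccharide, was at 0.18, -0.27 and 0.16 in the lean pools. In the overfed pools it was at 0.043, -0.043 and -0.16. All 3 overfed values lay between the lean values, which were themselves the extremes of the gene's range. The difference was -0.080 (SE 0.14, 95% interval -0.41 to 0.25), with a limma adjusted p of 0.948. It was -0.0013 without lean pool 1 and -0.23 without lean pool 2.

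Myd88 (probe set 1374468_at), the adaptor that most Toll-like receptors and the interleukin-1 receptor share, was nearly level. Its values were -0.061, 0.045 and -0.010 in the lean pools, and the overfed pools held 0.010, -0.11 and 0.11. The lowest and the highest value were both in overfed pools, and the lean values lay between them. The difference was 0.012 (SE 0.088, 95% interval -0.20 to 0.22), with a limma adjusted p of 0.988, and its sign changed with the scaling, as quantile normalization gave -0.0059.

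The subunit genes gave the most even picture of the pathway. Nfkb1 (probe set 1370968_at) encodes p105, the precursor of the DNA-binding subunit p50. It had the values 0.098, -0.030 and 0.21 in the lean pools, and the overfed pools held 0.030, -0.085 and -0.12. Lean pool 2 lay among the overfed pools, and the other lean pools lay above all of them. The difference was -0.15 (SE 0.095, 95% interval -0.37 to 0.074), with a limma adjusted p of 0.838.

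Nfkb2 (probe set 1375989_a_at), whose promoter match is printed above, encodes p100, precursor of p52 and itself an inhibitor of NF-kappaB. It was at 0.098, 0.0057 and 0.44 in the lean pools, and the overfed pools held -0.069, -0.25 and -0.0057. All lean values lay above all overfed values, by a narrow margin between lean pool 2 and overfed pool 3. The difference of -0.29 (SE 0.13), or 1.22-fold lower, was the largest of the 10 genes and larger in size than 91.5% of all probe sets. It had an unadjusted p of 0.0677 and an adjusted p of 0.78 in limma. Lean pool 3 held much of it: without that pool the difference was -0.16, and without lean pool 2 it was -0.38.

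Relb (probe set 1376160_at), the subunit that pairs with p52, had the values -0.013, 0.12 and 0.12 in the lean pools, and the overfed pools held -0.10, 0.013 and -0.062. Overfed pool 2 lay just above lean pool 1, and otherwise the lean pools were higher. The difference was -0.12 (SE 0.083, 95% interval -0.32 to 0.071), with a limma adjusted p of 0.844. Relb had the smallest spread within groups of the 10 genes, with an SD of 0.068.

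Another subunit gene, Rela, is not among the 10 and was named after its values were seen. It encodes p65 and differed by -0.14 (SE 0.099, limma adjusted p = 0.847). Rel had no probe set assigned to it alone. All 4 subunit genes measured thus had lower means in the overfed pools, with a median of -0.15. Of all 14217 genes, 6794 had lower means. Over the alternative settings run, Nfkb1 ran from -0.21 to -0.091, Nfkb2 from -0.38 to -0.16, Relb from -0.17 to -0.080 and Rela from -0.19 to -0.070. The smallest adjusted p of the 3 listed subunit genes in any of these settings was 0.649, for Nfkb2.

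Birc3 (probe set 1370113_at) encodes cellular inhibitor of apoptosis 2, a ubiquitin ligase that keeps the non-canonical kinase NIK low and is itself an NF-kappaB target. Its values were 0.071, 0.19 and -0.013 in the lean pools, and the overfed pools held -0.16, 0.013 and -0.074. As in Relb, overfed pool 2 exceeded 1 lean pool, here lean pool 3, and overfed pool 1 was the lowest. The difference was -0.16 (SE 0.092, 95% interval -0.37 to 0.061), with a limma adjusted p of 0.83. Without lean pool 2 it was -0.10, and over the alternative settings run it was -0.21 to -0.10. Its close relative Birc2 stood at 0.069 (SE 0.080).

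The inhibitors did not share a direction. Nfkbia (probe set 1389538_at), the classical IkappaB and a rapid NF-kappaB target, had the values 0.16, -0.025 and 0.017 in the lean pools, and the overfed pools held -0.072, -0.017 and 0.038. Lean pool 1 was high and the remaining pools overlapped, with a difference of -0.066 (SE 0.086, 95% interval -0.27 to 0.14) and a limma adjusted p of 0.926. Without lean pool 1 the difference was -0.013.

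Tnfaip3 (probe set 1385641_at) encodes A20, a ubiquitin-editing enzyme that shuts the pathway off, and its promoter held 3 kappaB matches. It was at -0.048, -0.14 and 0.048 in the lean pools, and the overfed pools held -0.40, 0.066 and 0.23. The overfed pools held both the lowest and the highest value, on either side of all lean pools. The group means therefore nearly coincided, with a difference of 0.012 (SE 0.16, 95% interval -0.37 to 0.40) and a limma adjusted p of 0.994. Leaving out overfed pool 1 gave a difference of 0.19, and leaving out overfed pool 3 gave -0.12. Its SD within groups of 0.24 was the largest of the 10 genes and exceeded that of 82.8% of all probe sets.

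Socs3 (probe set 1369584_at), a suppressor of cytokine signalling, blocks JAK kinases at the gp130 and leptin receptors. Its values were -0.14, -0.0092 and -0.090 in the lean pools, and the overfed pools held 0.022, 0.0092 and 0.14. All overfed values lay above all lean values, with lean pool 2 and overfed pool 2 next to each other. The difference was 0.14 (SE 0.084, 95% interval -0.059 to 0.34) with a limma adjusted p of 0.833. Over the alternative settings run it was 0.096 to 0.17, with adjusted p-values of 0.776 to 0.946.

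**Figure D2:**
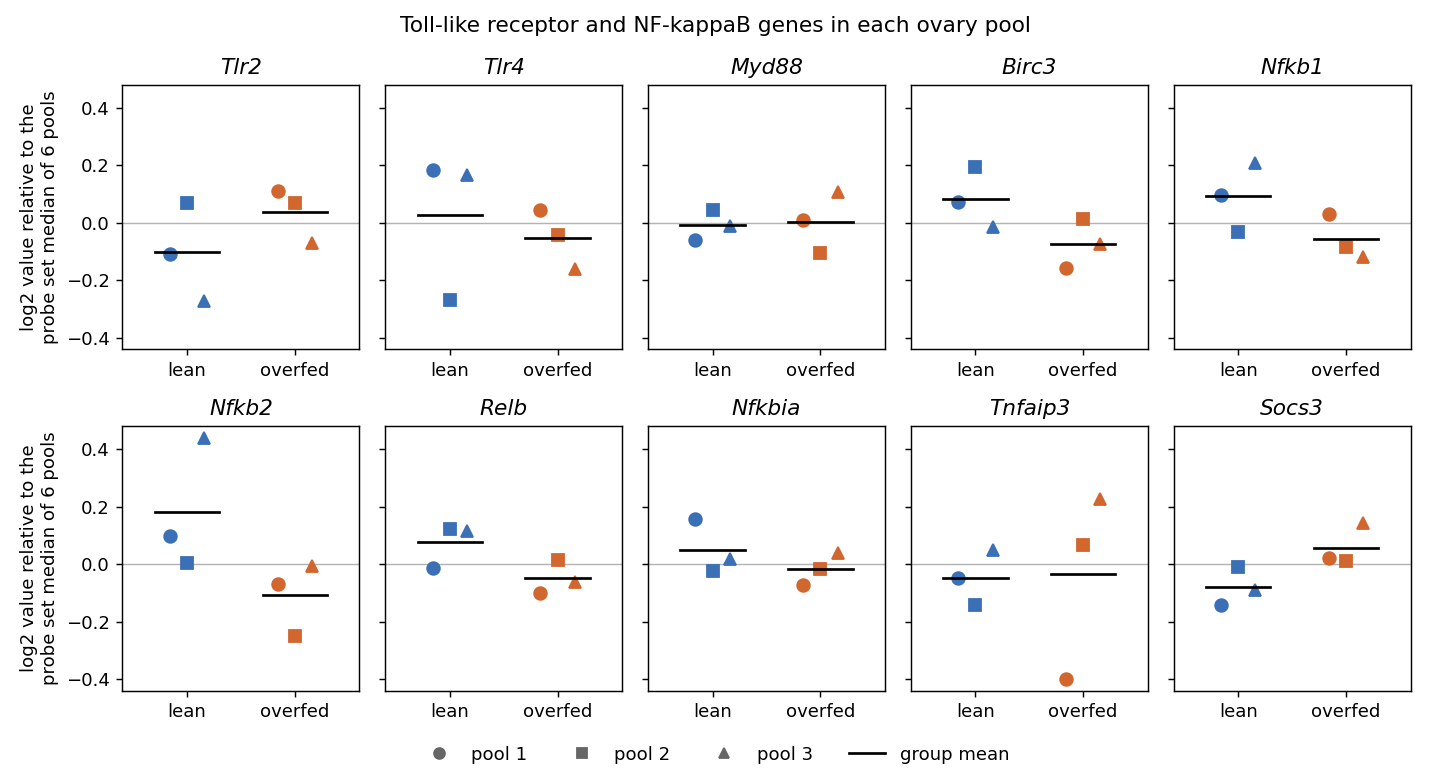
Values of the 10 genes in each pool, on the log2 scale relative to the gene's median over 6 pools (y axis), for lean (blue) and overfed (orange) pools, with the pool number as the marker shape and a bar at each group mean. The groups are apart in Nfkb2 and Socs3 only, and in Tnfaip3 the overfed pools run from -0.40 to 0.23 around the lean ones.

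Most of the 10 genes varied little within groups. Their values ran from -0.40 to 0.44, and the median of their SDs within groups was 0.098, against 0.138 over all probe sets. Tlr4, Nfkb2 and Tnfaip3 went the other way, with SDs above those of 72.8%, 69.4% and 82.8% of all probe sets. The median size of the difference between the groups was 0.13, against 0.091 over all probe sets. No pool was high or low throughout. Overfed pool 1 was the lowest pool in 4 genes, Birc3, Relb, Nfkbia and Tnfaip3, and the highest in Tlr2. Overfed pool 3 was the highest in 3 genes, Myd88, Tnfaip3 and Socs3, and the lowest in Nfkb1. Lean pool 3 was the highest in Nfkb1 and Nfkb2 and the lowest in Tlr2. The mean of the 10 genes was 0.023, -0.0038 and 0.061 in lean pools 1 to 3 against -0.058, -0.033 and 0.0021 for overfed pools 1 to 3, so that overfed pool 3 lay above lean pool 2.

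The wider pathway was read from 8 lists with 105 measured genes, each by 1 representative probe set, of which 95 were not among the 10. Of the 95, 57 had higher and 38 lower means in the overfed pools, against 7423 higher and 6794 lower of all 14217 genes. Their median was 0.037, against 0.0070 over all genes. None of the 105 passed the adjusted threshold in the fit of all probe sets. At an unadjusted p under 0.05 in limma, 5 of the 105 were higher, against 2.67% of all genes, and 4 were lower, against 4.47%.

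Among 12 receptor and co-receptor genes, Tlr1, which pairs with Tlr2, was at -0.21, -0.046 and -0.17 in the lean pools, and the overfed pools held 0.15, 0.23 and 0.046. The groups did not overlap, with a difference of 0.29 (SE 0.091, unadjusted p = 0.0157, adjusted p = 0.673 in limma). Lbp, which hands lipopolysaccharide to the Tlr4 complex, was at -2.21 (SE 0.34, limma adjusted p = 0.623). Its limma adjusted p was 0.0061 when the 50% of probe sets with the smaller SD were left out. That SD was taken over both groups and so includes the difference between them, and the lower p is not counted as a call. The other proteins of the Tlr4 complex had small differences. Cd14 was at -0.066 (SE 0.15) and Ly96, which encodes MD-2, at -0.026 (SE 0.13), both named after their values were seen. In this list 7 genes had higher and 5 lower means, with a median of 0.042.

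Among 16 adaptors and proximal kinases, 9 had higher and 7 lower means, with a median of 0.018. Irak2, a kinase recruited by Myd88, was at 0.31, 0.041 and 0.53 in the lean pools, and the overfed pools held -0.041, -0.12 and -0.29. The groups did not overlap, and the difference of -0.44 (SE 0.14) had an unadjusted p of 0.0152 and an adjusted p of 0.671 in limma. Pik3ap1, an adaptor that links Toll-like receptors to phosphoinositide 3-kinase, was at -0.39 (SE 0.15, limma adjusted p = 0.719), and without lean pool 3 at -0.24. In the list of the IkappaB kinase complex and the non-canonical axis, 6 of 11 means were higher and 5 lower, and the lowest p-values were those of the kinase gene Chuk at 0.17 (SE 0.087) and the receptor gene Tnfrsf11a at -0.31 (SE 0.17). In limma the adjusted p was 0.811 for Chuk and 0.829 for Tnfrsf11a. Without lean pool 3 and overfed pool 1 together, Chuk was at 0.082 and Tnfrsf11a at -0.026.

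Among 5 IkappaB genes, 2 means were higher and 3 lower. Beside Nfkbia, the lowest p-values were those of Nfkbiz, an inducible nuclear IkappaB, at 0.29 (SE 0.20) and Nfkbib at -0.19 (SE 0.14), with limma adjusted p-values of 0.847 and 0.851. Leaving out lean pool 2 gave 0.12 for Nfkbiz and leaving out lean pool 1 gave 0.46, and Nfkbib was at -0.068 when overfed pool 1 was left out. The 13 negative regulators, Tnfaip3 included, had 7 higher and 6 lower means and a median of 0.012. The A20-binding protein gene Tnip1 was at -0.22 (SE 0.10) and the inhibitory receptor gene Cd300a at 0.23 (SE 0.11). In limma the adjusted p was 0.792 for Tnip1 and 0.801 for Cd300a, and their differences were -0.096 and 0.0995 with both lean pool 3 and overfed pool 1 left out.

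The list of 31 NF-kappaB target genes held 5 of the 10 genes, Birc3, Nfkbia, Tnfaip3, Relb and Nfkb2. In all, 19 targets had higher and 12 lower means, with a median of 0.072. Of all 14217 genes, 7423 had higher and 6794 lower means. At an unadjusted p under 0.05 in limma, 380 of all genes were higher and 636 lower. Of the targets, 2 passed that threshold, both higher. They were the monocyte chemokine gene Ccl2 at 0.80 (SE 0.17, limma adjusted p = 0.623) and Plau, which encodes urokinase, at 0.45 (SE 0.16, limma adjusted p = 0.715). Without overfed pool 3, Plau was at 0.27.

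Of 20 genes of the SOCS family and gp130-STAT3 signalling, 14 means were higher and 6 lower, with a median of 0.038. Cish, another inhibitor of cytokine receptors, was at 0.25, 0.15 and 0.098 in the lean pools, and the overfed pools held -0.20, -0.15 and -0.098. Its groups did not overlap, and the difference of -0.32 (SE 0.082) was opposite in sign to that of Socs3, with an adjusted p of 0.623 in limma. The kinase gene Jak2, the target of Socs3, was at 0.29 (SE 0.11) and the phosphatase gene Ptpn11 at 0.32 (SE 0.11), with limma adjusted p-values of 0.727 and 0.705. Without lean pool 3, Ptpn11 was at 0.20.

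**Figure D3:**
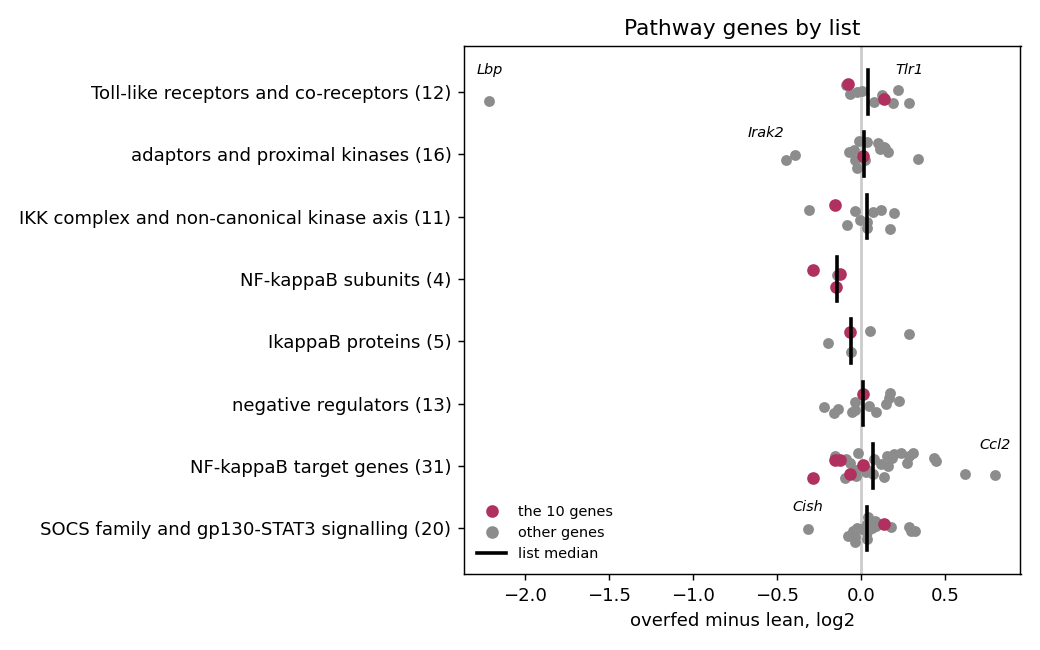
Overfed minus lean difference on the log2 scale (x axis) of each measured gene in 8 pathway lists, with the number of genes in brackets, the 10 genes in red and a black bar at the list median. The list medians lie between -0.15 for the NF-kappaB subunits and 0.072 for the target genes, and Lbp at -2.21 lies far from the rest.

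Cell type markers differed between the pools as well, and in bulk RNA fewer cells of a type and less RNA per cell cannot be told apart. Macrophage markers, of cells rich in Toll-like receptors, had higher means in the overfed pools in 10 of 12 genes, and the list mean was -0.10 to -0.025 in the lean pools and 0.014 to 0.17 in the overfed pools. The list of oviduct and ciliated epithelium had lower means in 10 of 10 genes, with list means of -0.078 to 0.76 in the lean pools and -0.82 to -0.25 in the overfed pools. Neutrophil markers were higher in 4 of 6 genes, with list means of -0.34 to -0.033 in the lean and 0.045 to 0.46 in the overfed pools. S100a8 and S100a9 carried most of this list's difference, at 1.08 and 1.12. Csf3r was at 0.20 and Cxcr2 at 0.093, while Camp at -0.068 and Np4 at -0.13 were lower. B and plasma cell markers were lower in 4 of 5 genes, with list means of 0.021 to 0.21 in the lean and -0.27 to -0.015 in the overfed pools.

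Over lean pools 1 to 3 the oviduct list stood at 0.53, -0.078 and 0.76. Of the 10 genes Nfkb1, Nfkb2 and Tnfaip3 had the same order. Outside the 10 so had Irak2, Lbp and Tnfrsf11a, with lower means in the overfed pools, and Ptgs2, Ier3 and Traf1, with higher means. Further pathway genes had this order as well. The smooth muscle list (0.38, -1.07 and 0.73) and the adipocyte list (0.21, -0.16 and 0.43) had that order too. Few orders of 3 pools are possible, and the share of all probe sets with this order is not given here. Over overfed pools 1 to 3, the oviduct list stood at -0.33, -0.25 and -0.82 and the smooth muscle list at 0.94, -0.42 and -0.60. Nfkb1 and Irak2 had the smooth muscle order there, and were lowest in pool 3 as was the oviduct list. Nfkb2 and Tnfaip3 were highest in pool 3, and Lbp was lowest in pool 1. Smooth muscle markers varied widely within both groups, from -1.07 to 0.73 in the lean and from -0.60 to 0.94 in the overfed pools. The list means of the 2 groups overlapped for T and NK cells (5 of 7 genes higher), endothelium (3 of 7), granulosa (5 of 7), theca (4 of 6), corpus luteum (2 of 7), smooth muscle (2 of 7), adipocytes (0 of 6) and oocytes (2 of 5). The part of these cell type differences in the values of the 10 genes was not tested, and since levels are unknown, no marker can be called absent.

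**Figure D4:**
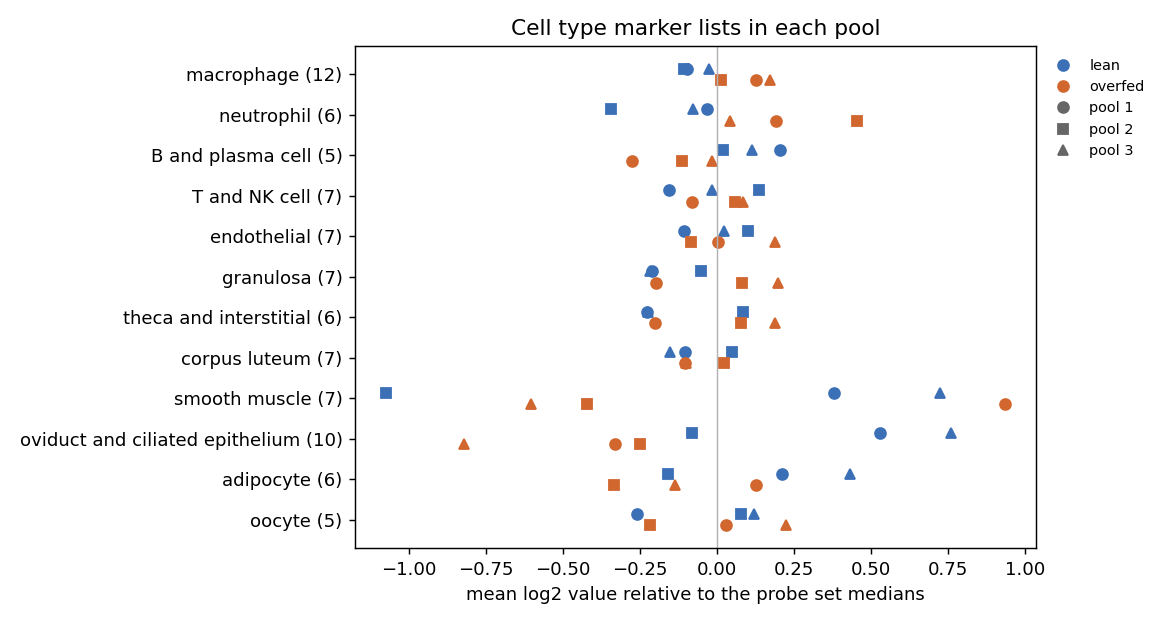
Mean log2 value, relative to the probe set medians, of 12 cell type marker lists in each pool (x axis), with the number of genes in brackets, lean pools in blue, overfed pools in orange and the pool number as the marker shape. The lean and overfed pools are apart in the macrophage, neutrophil, B and plasma cell and oviduct lists, the neutrophil list mostly through S100a8 and S100a9. The smooth muscle list spreads from -1.07 to 0.94.

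The genes whose pattern was most like the mean of the 10 over the 6 pools, among 14207 other genes, were Mtus1 (Pearson r = 0.996), Mphosph8 (r = 0.995) and Entpd3 (r = 0.993). These values describe 6 points that include the 2 groups, and 196 genes had an r above 0.9. The differences of these genes were -0.34, -0.26 and -0.27, against -0.056 for the mean of the 10.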

How the data were processed

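Ovary RNA of 3 lean and 3 overfed pools was hybridized to 6 Affymetrix arrays. The submitters' processing notes name GCOS, without a version. How probe sets were summarized and arrays normalized, and which log base was used, is not given in the sources used here. Read as log2, the deposited values have a median of 0 over the 6 pools (within 1e-06) in each of 31099 probe sets. The largest range of a probe set was 6.22.

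After 57 array controls were left out, 31042 probe sets were tested. Symbols came from the platform annotation and were updated through Entrez identifiers, of which the RefSeq table held those of 20758 of 20826 probe sets with 1 gene. A further 436 had several genes and 9780 were unnamed here. Where a gene had several probe sets, 1 was taken by its accession (RefSeq mRNA first), then its type, then its identifier (lowest first). The difference between the groups was fitted by lmFit and eBayes of limma 3.58.1 (R 4.3.3), two-sided and without covariates, with p-values adjusted by Benjamini-Hochberg across the 31042 probe sets and a threshold of 0.05. Intervals are 95% intervals of that fit.

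The 10 genes, the pathway lists and the marker lists were chosen with earlier results of these data known. Named were the 10 genes, and of each pathway list the genes at an unadjusted p under 0.05 or otherwise the 2 with the lowest p, and the 3 genes most like the mean of the 10. Outside this rule, Rela, Birc2, Cd14, Ly96, Ptgs2, Ier3, Traf1 and the neutrophil marker genes were named after their values were seen. Lists are described by counts and medians, with no test of the list. The limma fit was tested on simulated data. Alternatives changed the scaling (quantile normalization, or centring of arrays on their medians), the fit (weighted arrays, a robust prior with a trend, or a block for the pool number), the probe sets (without the 50% of smaller SD, used since levels are unknown, or averaged by gene) and the pools (each left out in turn). Leaving out lean pool 3 and overfed pool 1 together was added after seeing the data. Python 3.11.15 and matplotlib 3.10.9 were used for the figures.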

Additional observations from a re-analysis of the deposited data

How the results depend on the processing

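None of the 10 genes passed the adjusted threshold of limma in any alternative that gave values for them, where the smallest adjusted p was 0.649. The run with probe sets averaged by gene was read only for the count of pathway genes at an unadjusted p under 0.05. Of the 10, 8 kept their sign and 2 did not. Myd88 was at -0.0059 with quantile normalization, -0.005 with array weights and -0.039 to 0.0671 with any 1 pool left out. Tnfaip3 was at -0.1186 to 0.193 with any 1 pool left out. The cause was not tested. With any 1 pool left out, the median over the 10 was -0.1059 to -0.0132, the number at an unadjusted p under 0.05 was 0 to 1, the number whose groups did not overlap was 2 to 5, and 5 to 11 of the 105 pathway genes had an unadjusted p under 0.05. With both lean pool 3 and overfed pool 1 left out, the groups did not overlap in 5 of the 10. Groups separate more easily with fewer pools, and the share over all probe sets in these runs is not given. The filter on the SD left out 6 of the 10 genes, so that no median, overlap or interval count was given under it, and 4 pathway genes had an unadjusted p under 0.05 among the fewer probe sets tested. With the pool number as a replicate block, 1 of the 10, Nfkb2, had an unadjusted p under 0.05, and its limma adjusted p was 0.861. The labels do not say whether the numbers pair the pools. The deviations of same-numbered pools correlated at 0.097, 0.17 and -0.284, and only 2 of 6 pools correlated best with their own number. With so few pools this check cannot decide whether they were paired. The number of pools limits the precision, and signal over background is unknown.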
